A study of Mus musculus with 4 samples.

Results

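The genes described here are the mouse Hox cluster genes, that is, every gene whose symbol is Hoxa, Hoxb, Hoxc or Hoxd followed by a number. Probe sets annotated with a single such symbol were taken, and each gene was read by the probe set with the highest mean over the 4 arrays. This gave 33 genes, read by 48 probe sets, among 18193 genes with a single symbol. RefSeq lists 39 such genes. The other 6 had no probe set of their own.

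RNA came from mammary epithelial cells (MECs) of a Deaf-1-null mouse, immortalised with a retrovirus that carries the E6/E7 proteins of human papilloma virus (HPV16). The methods give 8 week-old females as the source. The cell lines C1 and E1 are separate clones of these cells. Each was infected with an empty (control) retrovirus or one that expresses Deaf-1, a DNA-binding transcription factor, and was harvested after 48 hours of selection in puromycin. All 4 arrays therefore share the Deaf-1-null genotype and the immortalising virus, and there was 1 array for each clone and retrovirus, with 2 arrays a clone. The mean over a clone is not a mean over mice, and the p-values below measure the spread between the arrays of these clones. Deaf1 itself, which checks the labels, read 5.01 with the control and 6.73 with the Deaf-1 retrovirus in C1, and 4.91 and 6.25 in E1. The position of its probe set relative to the deleted part of the gene was not given in the sources used here.

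Hox genes encode homeodomain transcription factors that give cells their position along the body axis. They stand in 4 clusters, Hoxa to Hoxd, and genes of the same number in different clusters are paralogues that descend from 1 ancestral gene. Low-numbered genes are used in anterior regions and high-numbered ones in posterior regions and distal limbs, and adult mesenchymal cells keep much of the Hox code of the place they came from. In the mammary gland the paralogues of group 9 are needed for growth during pregnancy, Hoxc8 takes part in placing the embryonic gland, and Hoxa5 acts in epithelial differentiation. Group 4 bears on Deaf-1 because the protein was isolated from Drosophila by its binding to a control element of Deformed, the fly gene related to group 4.

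Hoxa11, which separated the clones, and the group 4 genes Hoxb4 and Hoxc4 are shown by the 250 bases before their annotated start, from RefSeq on GRCm38.p6, written 5′ to 3′ on the strand of the gene. Capitals mark TTCG, the core that DEAF-1 proteins bind, or CGAA, the same letters on the other strand.
Hoxa11, chr6:52245811-52246060 on the minus strand: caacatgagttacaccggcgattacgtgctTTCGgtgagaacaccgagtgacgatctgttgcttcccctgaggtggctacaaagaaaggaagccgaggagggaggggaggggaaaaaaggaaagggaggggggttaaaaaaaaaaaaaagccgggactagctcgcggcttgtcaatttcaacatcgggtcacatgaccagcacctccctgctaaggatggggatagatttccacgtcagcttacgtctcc
Hoxb4, chr11:96318017-96318266 on the plus strand: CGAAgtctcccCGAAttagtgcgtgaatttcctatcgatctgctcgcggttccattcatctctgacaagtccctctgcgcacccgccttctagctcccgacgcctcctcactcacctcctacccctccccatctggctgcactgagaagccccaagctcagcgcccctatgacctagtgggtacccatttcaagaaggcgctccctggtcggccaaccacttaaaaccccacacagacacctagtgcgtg
Hoxc4, chr15:103034145-103034394 on the plus strand: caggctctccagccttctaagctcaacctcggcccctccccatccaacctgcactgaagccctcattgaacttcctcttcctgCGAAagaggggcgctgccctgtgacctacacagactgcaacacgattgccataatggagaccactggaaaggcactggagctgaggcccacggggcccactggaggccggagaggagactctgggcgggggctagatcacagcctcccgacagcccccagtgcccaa
Hoxb4 held 2 matches and the other pair 1 each. Over windows of 300 bases (250 before to 50 after the start), 16 of 24 Hox promoters, from 22 genes, held at least 1 match (66.7%), against 44.7% of 32851 promoters. The median GC content was 57.7% in the Hox windows and 52.7% in all. A match of so few letters is a description of the sequence and not a binding site.

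The values are log2 intensities after robust multi-array average (RMA) processing. A gene was taken as above background where its value exceeded 3.83, the 95th percentile of the means of 44 probe sets for olfactory receptors, which these cells are not thought to use. The array medians lay between 3.77 and 3.87. Correlation over all probe sets was 0.992 to 0.994 between arrays of the same clone and 0.976 to 0.983 between clones. RNA quality moved little with clone. The 3′ minus 5′ difference of the control probe sets lay between 0.445 and 0.524 for actin and between -0.272 and -0.217 for Gapdh.

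The label of the cells was set against cell type markers. Of 11 luminal markers 4 were above background on all 4 arrays and 5 on none, and of 8 basal markers 4 were on all and 3 on none. The defining keratins Krt18, Krt14 and Krt17 and the epithelial cadherin Cdh1 were above background on no array, Krt8 read between 3.46 and 4.01, and Epcam read between 5.81 and 6.33. The keratins Krt5 (4.45 to 4.74) and Krt19 (4.37 to 4.64) were above background on all 4 arrays. Of 9 fibroblast markers 8 were above background on all 4 arrays, and the mean log2 value of that list was 10.99 and 11.08 in C1 and 10.91 and 10.85 in E1. The mean over the luminal list was 3.93 and 3.83 in C1 and 3.78 and 3.99 in E1. Several defining markers of mammary epithelium were thus not above background, some were, and most fibroblast markers were, on the arrays of both clones. The part of this in the Hox values was not tested. In bulk RNA, fewer cells of a type and less RNA per cell cannot be told apart.

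**Figure D1:**
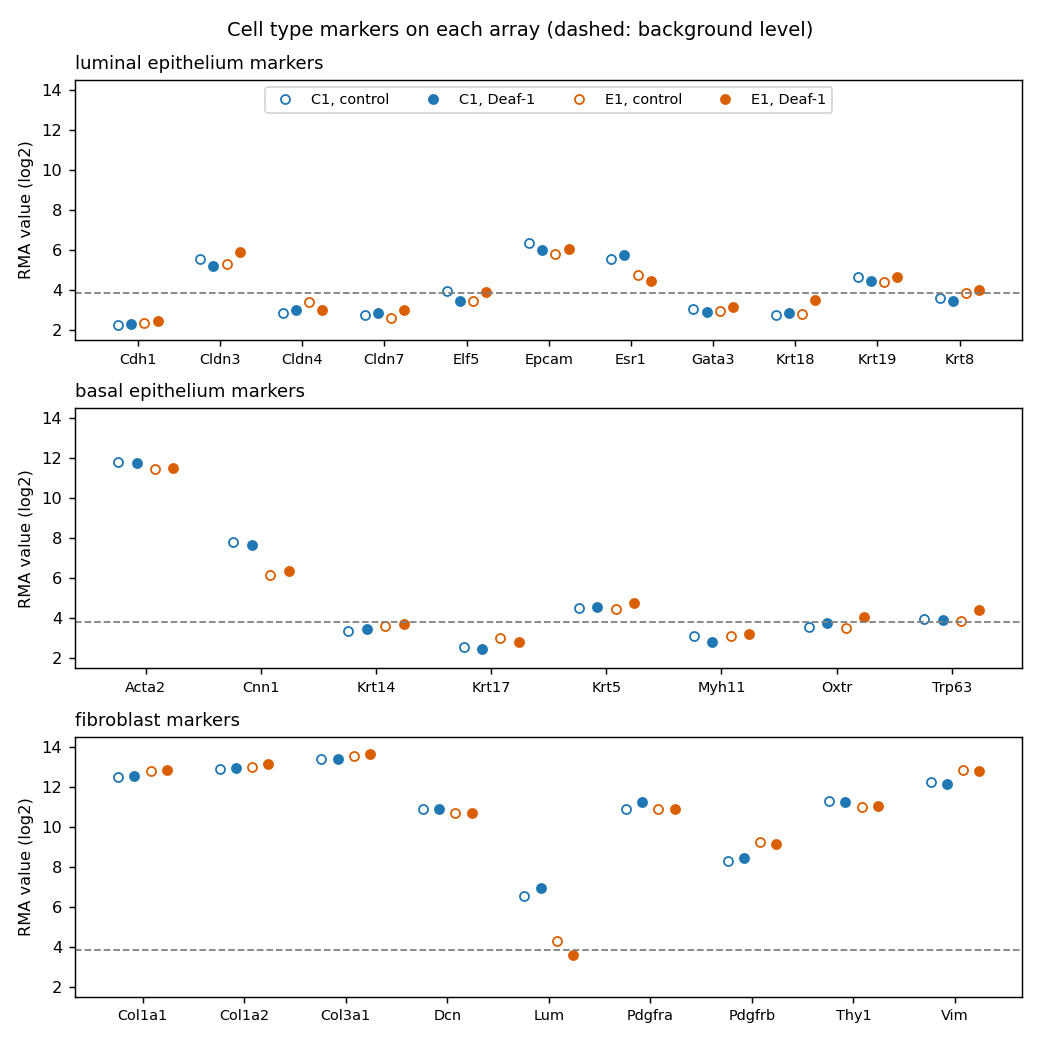
RMA values (log2) of the luminal, basal and fibroblast markers on each array. Open circles are the control and filled circles the Deaf-1 retrovirus, blue is C1 and orange is E1, and the dashed line is the background level of 3.83. Krt18, Krt14, Krt17 and Cdh1 lie below the line on all 4 arrays. Of 11 luminal markers 4, and of 8 basal markers 4, lie above it on all 4 arrays, among them Epcam, Krt19 and Krt5. Of 9 fibroblast markers 8 lie above it on all 4.

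Of the 33 Hox genes, 19 were above background on all 4 arrays, 11 on none and 3 on some. In the Hoxc cluster all 7 measured genes were above background on every array. Hoxc13 was only just so on the Deaf-1 array of C1 (3.855, against a level of 3.827). In the Hoxa and Hoxb clusters 5 of 9 genes each were above background on all 4 arrays. In the Hoxd cluster 2 of 8 were, namely Hoxd8 and Hoxd9. The 11 genes above background on no array were Hoxa2, Hoxa4, Hoxb1, Hoxb5, Hoxb7 and, in the Hoxd cluster, Hoxd1, Hoxd3 and Hoxd10 to Hoxd13. By paralogue group, all 4 measured genes of group 9 were above background on all arrays, as were both genes of groups 6 and 8. No measured gene of groups 1 and 12 was above background on any array. Levels are not compared between genes, because probe sets differ in how strongly they hybridise.

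**Figure D2:**
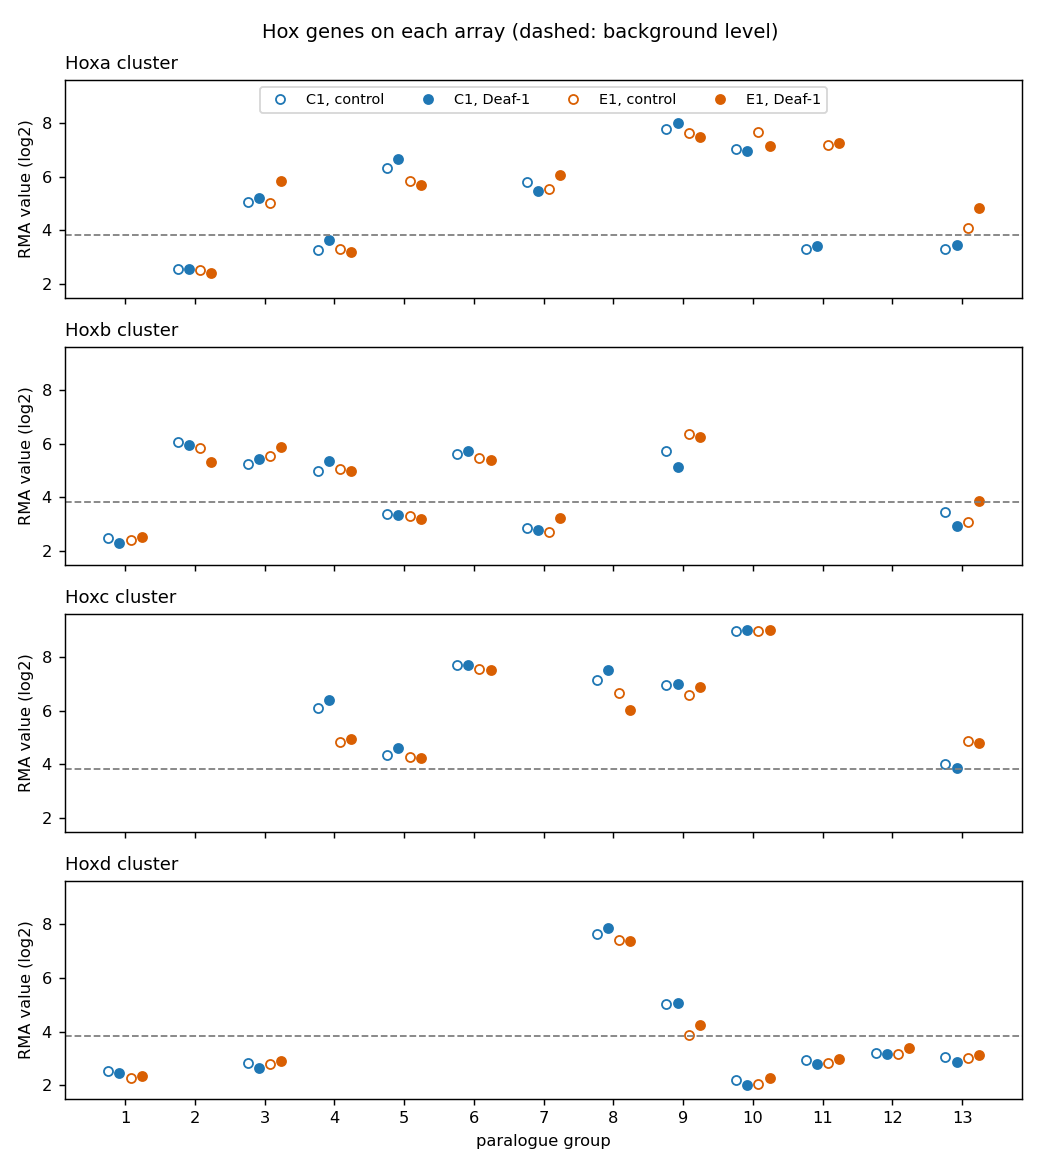
RMA values (log2) of the 33 Hox genes on each array, by cluster and paralogue group. Open circles are the control and filled circles the Deaf-1 retrovirus, blue is C1 and orange is E1, and the dashed line is the background level. Hoxa11 lies below the line on both C1 arrays and above 7 on both E1 arrays.

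The first comparison was between the clones, E1 against C1, over both retroviruses. Hoxa11, which patterns the forearm, kidney and uterus, was the Hox gene that passed the test. It read 3.33 with the control and 3.41 with the Deaf-1 retrovirus in C1, both below background, and 7.19 and 7.25 in E1. Both E1 arrays lay above both C1 arrays, and each retrovirus gave nearly the same difference. E1 minus C1 was 3.85 on the log2 scale (SE 0.14, 95% interval 3.46 to 4.24, adjusted p = 0.030 by limma), a ratio of measured values of 14.4. Because C1 lay below background, E1 was at least 10.5-fold higher, counted against the background level. Leaving out any 1 of the 4 arrays kept the difference between 3.81 and 3.89 but raised the adjusted p to between 0.0754 and 0.128. In each of those fits no probe set on the array passed, so neither Hoxa11 nor any other gene called with all 4 arrays was called then.

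The opposite-strand gene Hoxa11os starts inside Hoxa11, 567 bases from its start. Its brighter probe set read 3.49 and 3.38 in C1 and 5.95 and 5.92 in E1, a difference of 2.50 (adjusted p = 0.043 by limma) and at least 4.31-fold against the background level. Both E1 arrays were above background and both C1 arrays below it, as for Hoxa11. A dimmer probe set of Hoxa11os lay below background on all 4 arrays, between 2.28 and 2.75. The genes overlap in the genome, and whether each probe set reads 1 strand only was not tested.

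Hoxa11 was 1 of 33 Hox genes called at an adjusted p under 0.05, where 0.176% of all genes were called. At an unadjusted p under 0.01, a looser threshold, 6 of 33 Hox genes passed, against 6.95% of all genes. Of these, 4 were higher in E1 (Hoxa11, Hoxa13, Hoxb9 and Hoxc13, against 3.48% of all genes in that direction) and 2 were lower (Hoxc4 and Hoxd9, against 3.47%). Without the Deaf-1 array of C1 these counts were 2 higher and 1 lower, and without that of E1 they were 2 and 2. At an unadjusted p under 0.05 there were 8 of 33, against 17.9% of all genes. Among the 11730 genes with a mean above background, 598 passed as higher and 611 as lower at under 0.01. The median difference over the 33 genes was -7.7e-05, against 0.016 over all genes, and the median absolute difference was 0.24, against 0.19 over all genes and 0.25 over those whose mean was above background.

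Hoxa13, which patterns the hand, foot and genital tract, read 3.32 and 3.45 in C1 and 4.07 and 4.84 in E1 (control, then Deaf-1, here and below). Both C1 arrays were below background and both E1 arrays above it, with an unadjusted p of 0.0061 by limma (adjusted p = 0.155). The difference of 1.07 (SE 0.21) rests on dim values, and against the background level E1 was at least 1.55-fold higher. It was 1.45 without the control array of E1 and 0.69 without its Deaf-1 array, the latter being over 1.5 times smaller.

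Hoxc13, a regulator of hair and nail keratins, read 4.03 and 3.86 in C1 and 4.89 and 4.81 in E1. Both E1 arrays lay above both C1 arrays, by 0.90 on average (SE 0.14, unadjusted p = 0.0028, adjusted p = 0.131 by limma). Hoxb9, a group 9 paralogue, read 5.74 and 5.13 in C1 and 6.36 and 6.26 in E1. The clones again did not overlap, with a difference of 0.88 (SE 0.19, unadjusted p = 0.0086, adjusted p = 0.178 by limma). The Deaf-1 array of C1 was the lowest of the 4, and without it the difference was 0.57.

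In the other direction, Hoxc4, the first gene of its cluster and a group 4 paralogue, read 6.09 and 6.38 in C1 and 4.84 and 4.96 in E1. Both E1 arrays were below both C1 arrays, and all 4 were above background. The difference was -1.33 (SE 0.15, 95% interval -1.74 to -0.93, unadjusted p = 0.00067, adjusted p = 0.089 by limma). This was the largest absolute difference among the 19 genes above background on all arrays. Under other settings the adjusted p for Hoxc4 ranged from 0.00722 (median centring) to 0.249 (without the Deaf-1 array of C1), so its call depends on the setting. Hoxd9, another group 9 paralogue, read 5.03 and 5.07 in C1 and 3.88 and 4.25 in E1, just above background there. Its difference was -0.99 (SE 0.16, unadjusted p = 0.0032, adjusted p = 0.135 by limma), with no overlap between clones.

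Hoxc8 read 7.15 and 7.52 in C1 and 6.65 and 6.04 in E1. The difference of -0.99 (SE 0.28, unadjusted p = 0.021, adjusted p = 0.243 by limma) was as large as for Hoxd9, but the arrays within a clone lay further apart. Hoxa5 read 6.30 and 6.64 in C1 and 5.82 and 5.69 in E1, a difference of -0.71 (unadjusted p = 0.016, adjusted p = 0.216 by limma). The second probe set of Hoxa5, also above background on all arrays, differed by -0.068, so that the 2 probe sets of this gene disagree in size.

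The remaining genes above background differed less. Hoxb2, a hindbrain regulator, read 6.07 and 5.96 in C1 and 5.85 and 5.32 in E1. Hoxa10, which acts in the uterus and limb, read 7.03 and 6.95 in C1 and 7.65 and 7.13 in E1. Hoxb3, which acts in the hindbrain and throat, read 5.25 and 5.43 in C1 and 5.53 and 5.89 in E1. The arrays of the clones did not overlap in any of the 3, and the unadjusted p lay between 0.064 and 0.087 and the adjusted p between 0.382 and 0.431 by limma. A second probe set of Hoxb3 differed by -0.0046, against 0.37 for the first.

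Hoxd8, a trunk gene, read 7.61 and 7.85 in C1 and 7.39 and 7.35 in E1. Hoxa9, the group 9 gene of the Hoxa cluster, read 7.76 and 7.97 in C1 and 7.63 and 7.48 in E1. Hoxc9, which patterns the thoracic spinal cord, read 6.96 and 6.99 in C1 and 6.60 and 6.86 in E1. All 3 had lower values on both E1 arrays than on both C1 arrays, and none reached an unadjusted p under 0.05. Hoxb6, a trunk gene, read 5.63 and 5.74 in C1 and 5.46 and 5.38 in E1. Hoxc5, a cervical gene, read 4.35 and 4.60 in C1 and 4.28 and 4.24 in E1. Hoxc6, expressed in the thoracic region, read 7.71 and 7.70 in C1 and 7.53 and 7.50 in E1. These lay lower on both E1 arrays too, and the interval of each difference included 0.

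In the last 4 genes the clones overlapped. Over all 33 Hox genes the arrays of the clones did not overlap in 20 (6 higher and 14 lower in E1), against 51.8% of all genes, so with 2 arrays a clone a lack of overlap is common. Among the 21 with a mean above background it was 17, against 62% of such genes. Hoxa3, which acts in the throat and thymus, read 5.07 and 5.19 in C1 and 5.03 and 5.83 in E1. Hoxa7, a trunk gene, read 5.80 and 5.48 in C1 and 5.52 and 6.07 in E1. Hoxb4, known for its role in blood stem cells, read 4.98 and 5.35 in C1 and 5.06 and 4.98 in E1. The differences of these 3 were 0.30, 0.16 and -0.15, and the 95% interval of each included 0. Hoxc10, a hindlimb and lumbar gene, read 8.98 and 8.98 in C1 and 8.96 and 8.9997 in E1. Its difference was -7.7e-05, with a 95% interval of -0.39 to 0.39.

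**Figure D3:**
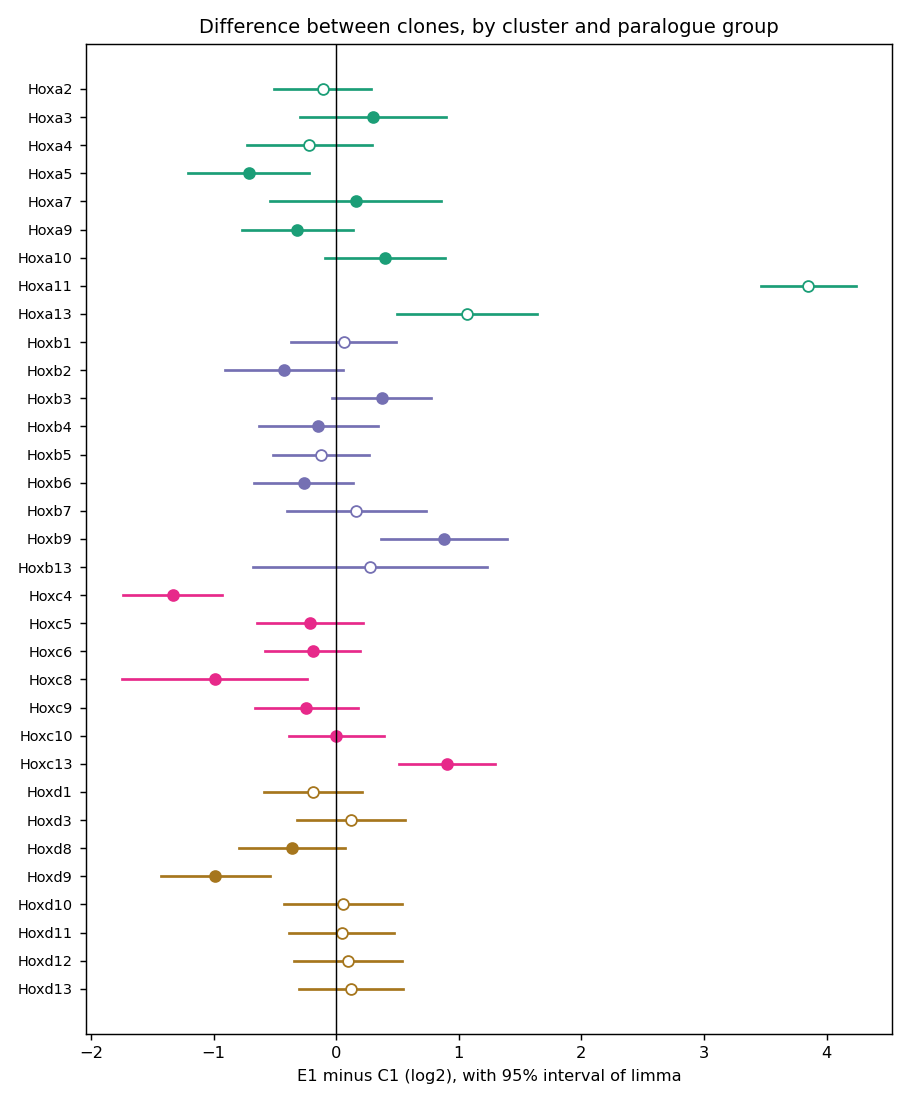
E1 minus C1 (log2, points) with the 95% interval of limma (lines) for the 33 Hox genes, in order of cluster and paralogue group. Filled points are the 19 genes above background on all 4 arrays, and colours mark the clusters. Hoxa11 stands at 3.85 and Hoxc4 at -1.33, and Hoxc10 stands at 0.

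Set out by position, the 14 genes of groups 9 to 13 held 10 with a value above 0 for E1 minus C1, and the 19 genes of groups 1 to 8 held 13 below 0. Of the 10 positive ones, Hoxd10 to Hoxd13 were above background on no array and Hoxb13 on 1. Among genes above background on both arrays of at least 1 clone, 5 of 9 in groups 9 to 13 were above 0 and 9 of 12 in groups 1 to 8 were below 0. The 4 genes higher at an unadjusted p under 0.01 were all of groups 9 to 13. The 2 lower ones were Hoxc4 and, within groups 9 to 13, Hoxd9. Spearman's rho between paralogue number and E1 minus C1 was 0.364 over the 33 genes. The genes share the same 4 arrays, and those of a cluster are neighbours, so rho is given as a description. By cluster, the median difference was 0.16 in Hoxa, 0.060 in Hoxb, -0.21 in Hoxc and 0.050 in Hoxd. In the Hoxc cluster 6 of 7 differences were negative, including all 4 of groups 1 to 8. Group 9 was split, with Hoxb9 at 0.88 and Hoxd9 at -0.99, while Hoxa9 and Hoxc9 lay at -0.32 and -0.24.

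Markers of another cell type moved with the clones. Of 4 measured adipocyte markers, Fabp4, a fatty acid carrier, read 2.57 and 3.77 in C1 and 10.59 and 10.56 in E1 (adjusted p = 0.032 by limma). Pparg, the regulator of fat cell formation, read 3.16 and 2.95 in C1 and 6.62 and 6.53 in E1 (adjusted p = 0.031). The mean log2 value of the list was 2.61 and 2.91 in C1 and 5.49 and 5.55 in E1, while 2 of its 4 genes were above background on no array. Among 9 fibroblast markers, 5 were higher and 4 lower in E1, with a median difference of 0.16. Lum differed by -2.82 (adjusted p = 0.087 by limma). At an unadjusted p under 0.01 by limma, 1 fibroblast marker was higher and 1 lower in E1, against 3.48% and 3.47% of all genes. The luminal and basal lists each held 1 marker lower in E1 at that threshold, and none higher. The part of these differences in the Hox result was not tested.

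The second comparison was Deaf-1 against the control retrovirus. No Hox gene passed. At an unadjusted p under 0.01, the threshold used here for Deaf-1, 0 of 33 passed, against 0.0275% of all genes, and at an unadjusted p under 0.05 the count was also 0, against 0.407%. Both counts were 0 with clone as a block as well, and the lowest unadjusted p without the block was 0.137 (limma, adjusted p = 1). The median difference was 0.031, against -0.0068 over all genes, and the median absolute difference was 0.11, against 0.092. With Deaf-1, 8 genes were higher in both clones, 6 were lower in both and 19 moved in opposite directions (57.6%, against 62.2% of all genes). Of all 18193 genes, 3205 were higher in both and 3675 lower in both. Of the 19 Hox genes, 10 were above background on no array. Among the 21 with a mean above background, 8 moved in opposite directions (38.1%, against 63.9% of such genes). Over the 33 Hox genes the change ranged from -0.62 to 0.39 in C1 and from -0.61 to 0.80 in E1.

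**Figure D4:**
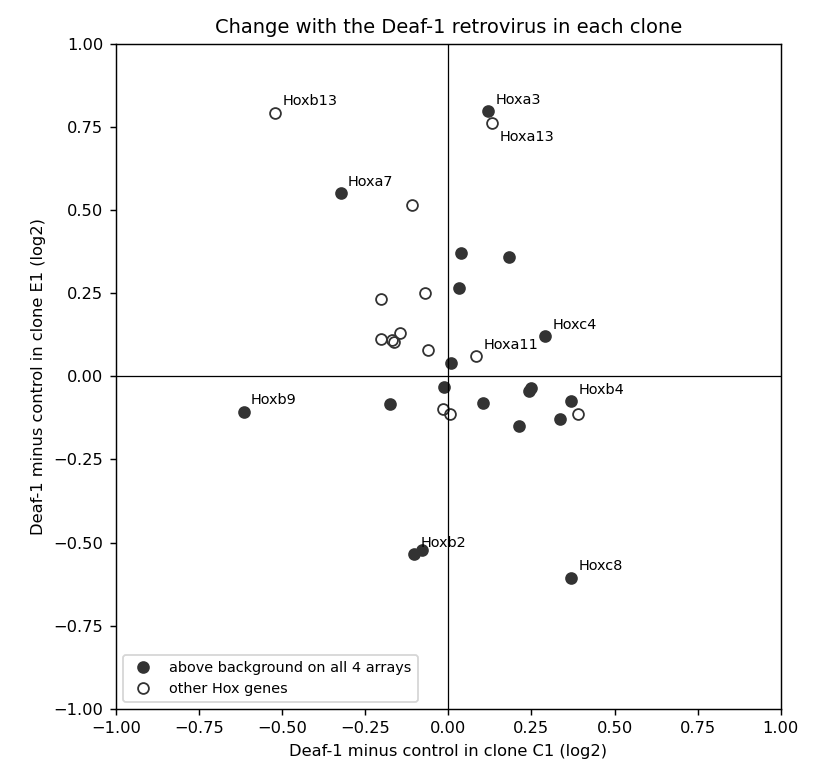
Change with the Deaf-1 retrovirus (log2, Deaf-1 over control) for the 33 Hox genes, with clone C1 on the horizontal and clone E1 on the vertical axis. Filled points are the 19 genes above background on all 4 arrays. Points in the upper right (8) and lower left (6) moved the same way in both clones, and the other 19 did not.

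The genes of group 4, related to the fly gene from which DEAF-1 binding is known, were read for 3 of 4 clusters. Hoxc4 was higher with Deaf-1 by 0.29 in C1 and 0.12 in E1, with a mean of 0.21 (95% interval -1.49 to 1.90, limma adjusted p = 1, unadjusted 0.762, or 0.233 with clone as a block, where the interval was -0.20 to 0.61). Hoxb4, whose window held 2 of the TTCG matches, moved by 0.37 in C1 and -0.073 in E1, a mean of 0.15 (interval -0.35 to 0.64, limma adjusted p = 1, unadjusted 0.469). Hoxa4 was below background on all arrays. Hoxa11 moved by 0.083 (C1) and 0.061 (E1), small beside its difference between the clones. Its interval without the block, -4.71 to 4.86, takes in the clone difference, and narrowed to -0.32 to 0.46 once clone was blocked.

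Of all Hox genes, Hoxa3, Hoxb2 and Hoxb3 had the largest absolute moderated t statistics for Deaf-1 without the block. They were chosen after their values were seen. With clone as a block, Hoxa13, below background in C1, ranked first (t 2.14, unadjusted p = 0.0961 by limma). Hoxa3 (t 2.11) and Hoxb9 (t -1.91) came next. Hoxa3 was higher by 0.12 in C1 and 0.80 in E1 (mean 0.46, limma adjusted p = 1, unadjusted 0.137, or 0.0994 with the block). Its other probe set with arrays above background, in C1 only, went from 4.21 to 4.37 in C1 and from 3.76 to 3.44 in E1. Hoxb3 was higher by 0.18 and 0.36 (mean 0.27), and Hoxb2 moved by -0.10 and -0.53 (mean -0.32), with limma adjusted p = 1 for both (unadjusted 0.291 and 0.287). None reached the threshold. Across the 33 genes the 95% interval of the Deaf-1 difference reached from 0.37 to 4.78 on either side of its mean without the block, and from 0.39 to 0.95 with clone as a block.

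Genes around the Hox genes were read from 7 lists that hold 144 genes, of which 135 were measured. The lists cover cofactors, Polycomb and Trithorax genes, retinoid and Cdx genes, neighbours of the clusters, other homeobox genes, and T-box and limb genes. None of the 135 was called between the clones at an adjusted p under 0.05. At an unadjusted p under 0.01, 16 of 135 passed between the clones, 10 higher and 6 lower in E1, against 6.95% of all genes. Of the 11730 genes with a mean above background, 598 passed as higher and 611 as lower. For Deaf-1 none of the 135 passed by limma, at under 0.01 or at under 0.05. Genes are named here by that looser threshold, after their values were seen.

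Among the TALE cofactors, homeodomain proteins that bind DNA together with Hox proteins, all 8 measured were above background on all arrays. Of these 8, 1 passed, against 6.95% of all genes in either direction. Meis2 read 5.13 and 5.49 in C1 and 6.23 and 6.17 in E1, a difference of 0.89. The median over the list was 0.16, against 0.016 over all genes. Polycomb proteins keep Hox genes silent, and of 28 measured 2 passed, both lower in E1, against 6.95% of all genes in either direction. These were Ezh1, a methyltransferase of histone H3, at -0.91 and Scmh1 at -0.75, and the list's median was -0.090. Over the list 20 genes were lower and 8 higher in E1, the higher ones including Eed (0.52) and Rnf2 (0.41). Whether these genes bear on the Hox values was not tested. None of the 12 Trithorax genes and H3K27 demethylases passed (median -0.20). None of the 19 genes that flank the Hox clusters passed either (median -0.044), with differences from -0.45 to 0.29.

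Retinoic acid and Cdx proteins set Hox expression in the embryo. Of 20 measured genes 4 passed, all higher in E1, against 3.48% of all genes in that direction. Cdx1, Cdx2 and Cdx4 were above background on no array. Aldh1a2, which makes retinoic acid, read 4.45 and 4.55 in C1 and 6.88 and 6.78 in E1, a difference of 2.33 (adjusted p = 0.053 by limma). Rarb, a retinoic acid receptor and itself a retinoid target, read 4.57 and 5.09 in C1 and 6.90 and 6.88 in E1, a difference of 2.06 (adjusted p = 0.072 by limma). Crabp1, a binding protein, differed by 1.07, and Stra6, a retinol transporter, by 0.73. Stra6 was dim in C1 (3.88 and 3.72), near the background level. The clones did not overlap for these genes, and the list's median was 0.18. Over the list 14 genes were higher and 6 lower in E1, the lower ones including Aldh1a1 (-0.62) and Rxrb (-0.55). Whether the genes of this list bear on the Hox values was not tested.

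Of 37 other homeobox genes, 3 passed as higher and 4 as lower in E1, against 3.48% and 3.47% of all genes. The median of these 37 was -0.0057. Meox2, a mesodermal gene, had the largest difference and read 5.21 and 5.56 in C1 but 2.75 and 2.67 in E1, below background (adjusted p = 0.053 by limma). Prrx1 and Prrx2, of limb mesenchyme, differed by -1.01 and -1.12, and Six4 by -0.69. The higher ones were En1 (1.04), En2 (0.99) and Irx2 (0.94). In C1, En1 (3.75 and 3.99) and En2 (3.865 and 4.00) lay near the background level, so both differences rest on dim C1 values. Among 11 T-box and limb genes, Hand1 and Hand2, which act in heart and limb, passed as higher in E1, against 3.48% of all genes. The median of that list was 0.10. Hand1 differed by 0.66. Hand2 was below background on both C1 arrays (3.59 and 3.47), and E1 was at least 1.4996-fold higher against the background level.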

How the data were processed

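Values were the log2 intensities that the authors deposited after RMA processing of 4 Affymetrix mouse 430 2.0 arrays, as log2 values per probe set. RMA quantile-normalizes arrays together, which can hide a shift shared by most genes. Of 45101 probe sets, 64 controls were left out. Of the 45037 tested, 34945 had 1 gene symbol, 932 several and 9160 none in the platform annotation. All were fitted with limma 3.58.1 in R 4.3.3, two-sided, with Benjamini-Hochberg adjustment. The clone comparison had retrovirus as a covariate. A call was an adjusted p under 0.05. The Deaf-1 comparison took clones as replicates, as the study did. It had no block for clone, and the paper does not state whether its own fit had a block. A call was an unadjusted p under 0.01. Replicate numbers pair arrays of the same clone, whose deviations correlated at 0.54. The difference between clones in the Deaf-1 change could not be tested, as no residual degrees of freedom remain. Steps were tested on simulated data. The Hox genes and gene lists were chosen with earlier results of these data known. Every Hox gene was eligible, and values on each array are given for the 21 above background on both arrays of at least 1 clone. List genes were to be named when called. The number of arrays limits the precision.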

Additional observations from a re-analysis of the deposited data

Results flagged for a closer look

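In 8 of the 21 Hox genes above background on both arrays of at least 1 clone, the change with Deaf-1 had opposite signs in the clones (38.1%, against 63.9% of all genes with a mean above background), and the difference between these changes was not tested because there was 1 array for each clone and retrovirus. The change in E1 minus the change in C1 was -0.9745 for Hoxc8 (0.37 in C1 and -0.61 in E1) and 0.875 for Hoxa7 (-0.32 and 0.55). It was -0.4651 for Hoxa5, -0.4428 for Hoxb4, -0.3628 for Hoxa9, -0.2856 for Hoxc5, -0.2852 for Hoxd8 and -0.1828 for Hoxb6. In all of these but Hoxa7 the value was higher with Deaf-1 in C1 and lower in E1. The share of all genes that moved in this direction was not counted. Over all probe sets the Deaf-1 change in C1 correlated at -0.31 with that in E1, so opposite changes are not particular to Hox genes.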

How the results depend on the processing

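Of the clone comparison's called Hox genes (1 higher, 0 lower in E1), the counts were 2 and 2 without the retrovirus term, 2 and 2 after quantile normalization, 3 and 2 after median centring, and 2 and 2 with the mean of all probe sets of a gene. Counts lower in E1 were 1 with cyclic loess, 1 over probe sets above background (21 Hox genes tested) and 1 with an intensity trend. With a mean of at least 6 (8 Hox genes tested) they were 0 and 2, and at an unadjusted p under 0.01 they were 4 and 2. Leaving out 1 array gave 0 to 0 higher, and 2 to 3 higher and 1 to 3 lower at an unadjusted p under 0.01. At that p, 4 were lower without the retrovirus term, after quantile normalization, median centring or cyclic loess. With a mean of at least 6, 0 were higher. Hoxa11, Hoxa13, Hoxb9 and Hoxc13 had means of 5.30, 3.92, 5.87 and 4.40 and so were not tested there. Hoxc4 (5.57) and Hoxd9 (4.56) were not tested there either. The 2 called lower there at an adjusted p under 0.05 were Hoxc8 and Hoxa5. List genes called, 0 in each direction, were 11 higher and 5 lower without the retrovirus term, and 4 and 3 with cyclic loess. Calls rose array-wide too. Of 45037 probe sets, 31 were called higher and 18 lower in the main fit, and 1118 and 1188 without the retrovirus term. The counts were 683 and 603 after quantile normalization and 723 and 868 after median centring. With cyclic loess they were 524 and 412, and with an intensity trend 860 and 836. Above background they were 222 and 192 of 22403, and with a mean of at least 6, 1117 and 1223 of 12386. Averaged by gene they were 299 and 266 of 18193. The Deaf-1 counts were 0 higher and 0 lower under all alternatives, including clone as a replicate block, and the block changed no call.

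Signs turned for 4 small clone differences. Leaving out 1 array gave -0.097 to 0.70 for Hoxa3, -0.12 to 0.43 for Hoxa7, -0.33 to 0.040 for Hoxb4 and -0.020 to 0.020 for Hoxc10. The mean of all probe sets gave -0.069 for Hoxa3, and cyclic loess gave 0.024 for Hoxc10. For Deaf-1, leaving out 1 array gave -1.86 to 2.00 for Hoxa11, -0.50 to 0.91 for Hoxc4, -0.64 to 0.0027 for Hoxb2 and -0.035 to 0.33 for Hoxb4, where each such fit sets 1 clone's array against a pair from both clones. The causes of the other shifts were not tested. With a background level of 5, 14 genes were above it on all arrays and 15 on none. With the 99th percentile of the olfactory receptor means (3.98) as the level, the counts were 17 and 12. Over all alternatives of the 21 clone differences, 251 values kept their direction and side of the threshold, 18 passed it newly, 4 (Hoxa11 with 1 array left out) no longer passed it and 8 changed sign.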

Other observations

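Probe sets outside the rule read near background for the most part. The probe set shared by Hoxb8 and Hoxb7 read 3.22 and 3.02 in C1 and 3.98 and 3.43 in E1, above background on 1 array. The 2 shared by Hoxd4 and Hoxd3 were above background on none. Of the opposite-strand genes, Hoxb5os read 4.23 and 4.39 in C1 and 4.19 and 4.82 in E1, above background on all 4 arrays, although Hoxb5 itself was above background on none. Both probe sets of Hoxd3os1 were above background on none.

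Second probe sets of Hox genes gave further values for the clones. For Hoxc6 the other 2 probe sets, above background on all arrays, differed by -0.16 and -0.033, against -0.19 for the first. For Hoxa9 the second differed by -0.18 and for Hoxd8 by -0.12. The probe set of Hoxa3 above background in C1 only differed by -0.69 (unadjusted p = 0.019 by limma), against 0.30 for the brighter one, so the direction for Hoxa3 depends on the probe set.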
